A study of Mus musculus with 17 samples.

Results

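A set of 10 epidermal barrier genes, out of the 20572 genes in the RNA table, were followed by name through RNA abundance, ribosome footprints and Msi2 binding in mouse keratinocytes: Tgm1, Tgm3, Spink5, Csta, Krtdap, Sbsn, Cnfn, Calml3, Ivl and Capns2. The cells were spontaneously immortalized keratinocytes from newborn C57BL/6 skin, grown on mitomycin-treated fibroblast feeders for the first 3 passages and on uncoated dishes afterwards. They were infected with a lentivirus carrying an Msi2 shRNA (the knockdown) or a scrambled shRNA, and from 2 days after infection they were kept for 2 days in puromycin (2 ug/ml). Musashi-2 (Msi2) is an RNA-binding protein, and the study set out to find its direct targets in these cells. RNA was sequenced in 3 knockdown and 3 scrambled libraries, and ribosome footprints, short fragments shielded by a ribosome during nuclease digestion, in another 3 and 3 after a short cycloheximide treatment. RNA bound by Msi2 was mapped in 5 HITS-CLIP libraries, for which the labels name no shRNA. The cells were irradiated with UVC to fix protein to RNA, Msi2 was recovered with an antibody, and the libraries differed in RNase dilution. Replicates 2 and 3 shared a dilution of 1 in 20 and were labelled low and high MW (molecular weight). No source used here states whether the replicates were separate infections, so the p-values cover only how far these libraries scatter, which may be technical.

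The cornified envelope is the shell of cross-linked protein that replaces the plasma membrane when a keratinocyte ends its life at the skin surface. Precursors such as involucrin are laid down under the membrane, calcium-activated transglutaminases join them, and lipids are attached outside. Inhibitors of proteases hold back the shedding of the dead cells. Most of these genes are switched on above the basal layer, so in a culture they also mark cells that have begun to differentiate.

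Gene counts per library ranged from 9221566 to 26785876 in knockdown RNA and from 11291571 to 24931967 in scrambled RNA, and from 512256 to 2069440 in knockdown footprints and from 702602 to 2959625 in scrambled footprints. Msi2 itself had 9, 0 and 5 footprint counts in knockdown libraries, against 39, 50 and 13 in scrambled ones, a log2 change of -2.08 ± 0.41 (SE, adjusted p = 0.000285). Its footprints passed the low-count filter only through scrambled libraries, so a fall was the only direction open to this test. Msi2 RNA had 63, 80 and 136 counts in knockdown and 127, 152 and 103 in scrambled libraries and did not pass the test (log2 change -0.29 ± 0.21, adjusted p = 0.283). With each library's trend with gene span removed it passed as lower (-0.56, adjusted p = 0.0278). The basal keratins Krt14 and Krt5 averaged 5538 ± 450 and 4573 ± 372 CPM (library-scaled counts with TMM factors) in knockdown RNA and 7270 ± 950 and 7045 ± 1160 CPM in scrambled RNA (SD, n = 3 each). Krt1 and Krt10, the main keratins of spinous cells, had few RNA counts. In all there were 1 knockdown and 10 scrambled counts for Krt1, and 66 knockdown and 182 scrambled for Krt10. Krt10 was called lower (log2 change -1.26 ± 0.41, adjusted p = 0.0198), although its groups of libraries overlapped, and its footprints had too few counts to test. The envelope protein loricrin (Lor) had 38 knockdown and 49 scrambled counts. Reads that aligned to several places were 19.8 to 24.5% of each knockdown RNA library and 13.4 to 17.4% of each scrambled one; their part in the results was not tested.

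On knockdown, RNA of 7 of the 9 testable genes fell and none rose. The genes that fell were Capns2, Tgm3, Csta, Spink5, Cnfn, Ivl and Sbsn, while Krtdap and Tgm1 did not pass the test. Calml3 had too few reads for a test. Across all 11117 genes tested in RNA, 21.7% were called lower and 22% higher by edgeR's quasi-likelihood test at an adjusted p (Benjamini-Hochberg) under 0.05. The median log2 change of the 9 genes was -1.50 (range -3.47 to -0.17), beside 0.00405 over all genes tested. Capns2, with 48 knockdown and 568 scrambled counts, passed the low-count filter only through scrambled libraries. A fall was thus the only direction open to it, and the counts and the median given here include it. The 2 groups of libraries did not overlap, with knockdown lower, in 7 of the 9, beside 26.2% of all genes tested. None was called higher by DESeq2 either, and none had an unadjusted p under 0.05 in that direction. In bulk samples, fewer differentiated cells and less RNA per cell cannot be told apart.

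**Figure D1:**
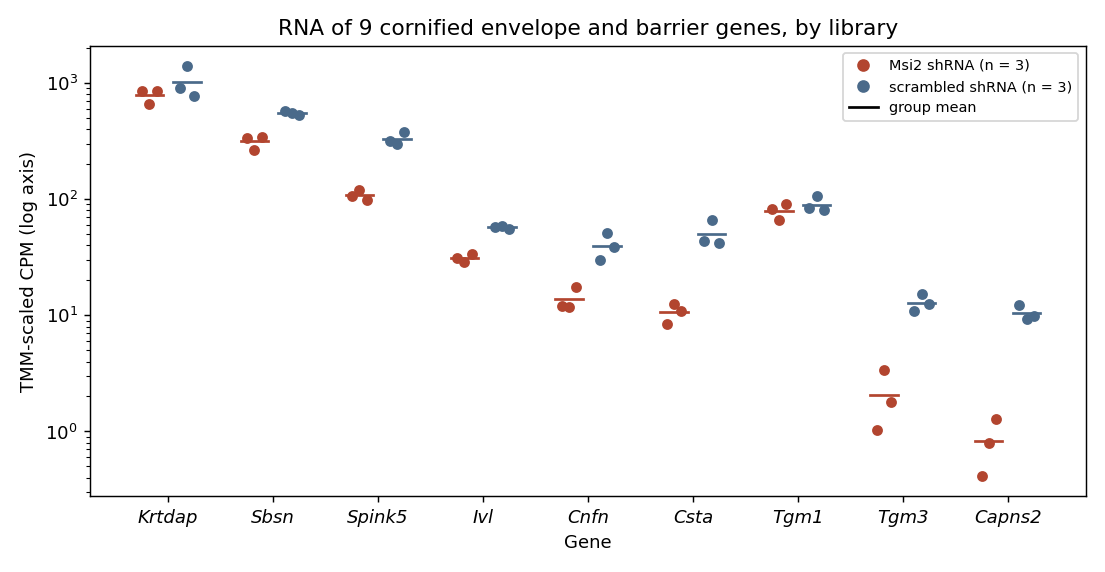
RNA level (TMM-scaled CPM, log axis) of the 9 testable genes in each library, with Msi2 shRNA libraries left of scrambled ones and a line at each group mean (n = 3 each). The groups separate for every gene except Krtdap and Tgm1, and the gap is widest for Capns2 and Tgm3.

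Among the proteins of the envelope, involucrin (Ivl, chr3:92570899-92573790 on GRCm38.p6, the mouse build used for all positions), the rod-shaped precursor laid down early under the membrane, had RNA at 30.9, 28.8 and 33.4 CPM in knockdown libraries and 57.1, 58.2 and 55.5 CPM in scrambled ones. All 3 knockdown libraries were below every scrambled library, and replicates lay close together. Its log2 change was -0.87 ± 0.12 (SE, adjusted p = 2.45e-05). Cornifelin (Cnfn, chr7:25367616-25369724), a small protein that is a minor part of the envelope, had 12.1, 11.7 and 17.7 CPM in knockdown and 29.8, 51.1 and 38.6 CPM in scrambled RNA. The scrambled libraries spread more than the knockdown ones, but the groups did not overlap, and the log2 change was -1.50 ± 0.20 (adjusted p = 4.62e-05).

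Suprabasin (Sbsn) and the keratinocyte differentiation-associated protein (Krtdap) are secreted proteins of the suprabasal layers, encoded side by side with dermokine (Dmkn) between them. Sbsn spans chr7:30732674-30756134, Dmkn chr7:30763756-30781066 and Krtdap chr7:30787905-30791089. Sbsn RNA was at 337, 263 and 345 CPM in knockdown and 571, 553 and 524 CPM in scrambled libraries. The groups were clearly apart, and RNA fell by 0.80 ± 0.13 on the log2 scale (adjusted p = 0.000128). Krtdap RNA was at 859, 659 and 848 CPM in knockdown and 905, 1386 and 777 CPM in scrambled libraries. These groups overlapped: scrambled replicate 3 lay under 2 knockdown libraries, and scrambled replicate 2 stood high. The log2 change of Krtdap, -0.38 ± 0.18, did not pass the test (adjusted p = 0.110), and without scrambled replicate 3 it did (-0.55, adjusted p = 0.0171). Without scrambled replicate 2 it was -0.10 (adjusted p = 0.553), and with the trend with gene span removed -0.18 (adjusted p = 0.360). Dmkn, between them, fell in RNA by 0.53 ± 0.13 on the log2 scale (adjusted p = 0.00312).

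Promoters of 3 of these genes are shown because the same short motif stood in each, and because Sbsn and Krtdap are neighbours. A promoter here is the stretch from 250 bases before to 50 bases after the transcript start that the RefSeq promoter table uses (GRCm38.p6). In Sbsn, Tgm3 and Ivl that start lies inside the gene's full span. Promoters were found for 8 of the 10 genes. The AP-1 motif, searched as TGANTCA on both strands, was present in promoters of 3 of the 8 genes (Ivl, Sbsn and Krtdap), beside 7.81% of all 32851 promoters. AP-1 dimers of Fos and Jun proteins are known activators of involucrin in keratinocytes. The windows below are 30 bases long with the motif in capitals, for Ivl chr3:92573833-92573862 on the minus strand, for Sbsn chr7:30751341-30751370 and chr7:30751454-30751483 and for Krtdap chr7:30787813-30787842, all on the plus strand.
Ivl: aagttatcagaTGACTCAgaaaggaaggaa
Sbsn, upstream: gatcttgtccaTGAATCAtcctgtcttcct
Sbsn, near the start: acaggagggatTGAGTCAtgaggggtgggg
Krtdap: tgatccggggaTGAGTCActagggtgggaa

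A TATA box, searched as TATAAA on the gene's strand, was present in promoters of Tgm3, Ivl and Krtdap, 3 of 8 genes, beside 8.32% of all promoters. It began 28 bases before the start in Tgm3, 29 in Ivl and 30 in Krtdap, at chr2:130012300-130012329 (plus strand), chr3:92573747-92573776 (minus strand) and chr7:30787863-30787892 (plus strand). These windows are shown because the box stood at nearly the same distance in all 3 genes, and the motif is in capitals.
Tgm3: aggagaggcttcTATAAAtggtaaggcaat
Ivl: aggctagaacaaTATAAAgggccctagttg
Krtdap: accccttgctaaTATAAAgggccatcaggg
The motif AACCNGTT of grainyhead-like factors, searched on both strands, was in no promoter of the 8 genes, beside 2.09% of all promoters.

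Of the transglutaminases, Tgm3 fell in RNA and Tgm1 did not pass the test. Transglutaminase 1 (Tgm1, chr14:55700009-55713921), the membrane-bound enzyme whose loss causes lamellar ichthyosis in humans, had RNA at 81.5, 65.9 and 91.0 CPM in knockdown and 83.0, 106 and 80.2 CPM in scrambled libraries. The groups overlapped, and the log2 change of -0.17 ± 0.13 did not pass the test (adjusted p = 0.310). Transglutaminase 3 (Tgm3, chr2:129987794-130050399), the soluble enzyme of upper epidermis and hair follicle, had 1.04, 3.36 and 1.80 CPM in knockdown and 10.9, 15.1 and 12.5 CPM in scrambled libraries. Its RNA was 6.18-fold lower in knockdown cells, a log2 change of -2.63 ± 0.28 (adjusted p = 3.64e-06). The difference between the changes of these 2 genes was not tested. Among their relatives Tgm5, another transglutaminase of the upper epidermis, averaged 0.298 ± 0.268 CPM in knockdown and 2.83 ± 0.517 CPM in scrambled RNA (log2 change -3.18 ± 0.52, adjusted p = 0.000153). Tgm5 had 15 knockdown counts in all and passed the low-count filter only through scrambled libraries, so only a fall was open to it. Tissue transglutaminase, Tgm2, had a log2 change of -0.73 ± 0.17 (adjusted p = 0.00199).

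Spink5 and Csta, the protease inhibitors of the set, fell in RNA. Spink5 encodes LEKTI, which inhibits the kallikreins that cut the junctions between dead cells and whose loss causes Netherton syndrome in humans. Its RNA was at 105, 120 and 98.6 CPM in knockdown and 318, 297 and 376 CPM in scrambled libraries, 3.06-fold lower in knockdown cells (log2 change -1.61 ± 0.13, adjusted p = 1.35e-07). Csta encodes cystatin A, an inhibitor of cysteine proteases that is itself built into the envelope, and RefSeq lists it as Csta1 at chr16:36119946-36131189. Csta RNA was at 8.42, 12.4 and 10.9 CPM in knockdown and 43.2, 66.1 and 41.5 CPM in scrambled libraries, a log2 change of -2.24 ± 0.19 (adjusted p = 4.01e-07). Mouse has several near-identical stefin genes beside Csta, among which the authors' counting could split or drop reads, so the level of Csta is uncertain. Of 11 such copies and relatives, 5 were tested in RNA and 5 of 5 fell, beside 21.7% of all genes tested, with a median of -3.11. They were BC100530 (-4.31 ± 0.22), BC117090 (-4.37 ± 0.63), Stfa3 (-3.11 ± 0.33), Cstb (-0.62 ± 0.13) and Gm5416 (-1.13 ± 0.36), named after their values were seen. Near-identical copies may share reads, so they are not independent of Csta. BC117090, with 4 knockdown and 105 scrambled counts, passed the low-count filter only through scrambled libraries.

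Capns2 and Calml3 belong to the calcium-handling side of differentiation. Capns2 (chr8:92901395-92902409) encodes a small regulatory subunit of calpain proteases, and its RNA was at 0.416, 0.801 and 1.28 CPM in knockdown and 12.4, 9.30 and 9.76 CPM in scrambled libraries. It had the lowest log2 change of the 9 genes, -3.47 ± 0.29 (adjusted p = 3.00e-07). Capns2 passed the low-count filter only through scrambled libraries, so a fall was the only direction open to it. Its relative Capns1, the subunit that most cells use, fell by 0.52 ± 0.12 (adjusted p = 0.00176). Calml3 (chr13:3802893-3804318), a calmodulin-like protein of epithelia, had 0, 0 and 0 RNA counts in knockdown and 0, 7 and 1 in scrambled libraries, too few to test. Calm4, another calmodulin-like gene of skin, fell by 2.63 ± 0.49 on the log2 scale (adjusted p = 0.000458). With 21 knockdown counts in all, Calm4 also passed the low-count filter only through scrambled libraries, so only a fall was open to it.

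Ribosome footprints fell in 6 of the 9 testable genes: Tgm3, Capns2, Csta, Spink5, Cnfn and Ivl. Of these, Tgm3, Capns2 and Csta passed the low-count filter only through scrambled libraries. A fall was thus the only direction open to them, and the count of 6 and the median below include them. Sbsn, Tgm1 and Krtdap did not pass the test, none was called higher by edgeR or DESeq2, and none had an unadjusted p under 0.05 in that direction. Over the 8969 genes tested in footprints, 7.38% were called lower and 8.76% higher. The median log2 change of the 9 genes was -1.05 (range -4.28 to 0.27), beside -0.0111 over all genes tested. Groups did not overlap, with knockdown lower, in 7 of the 9, beside 15.4% of all genes.

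**Figure D2:**
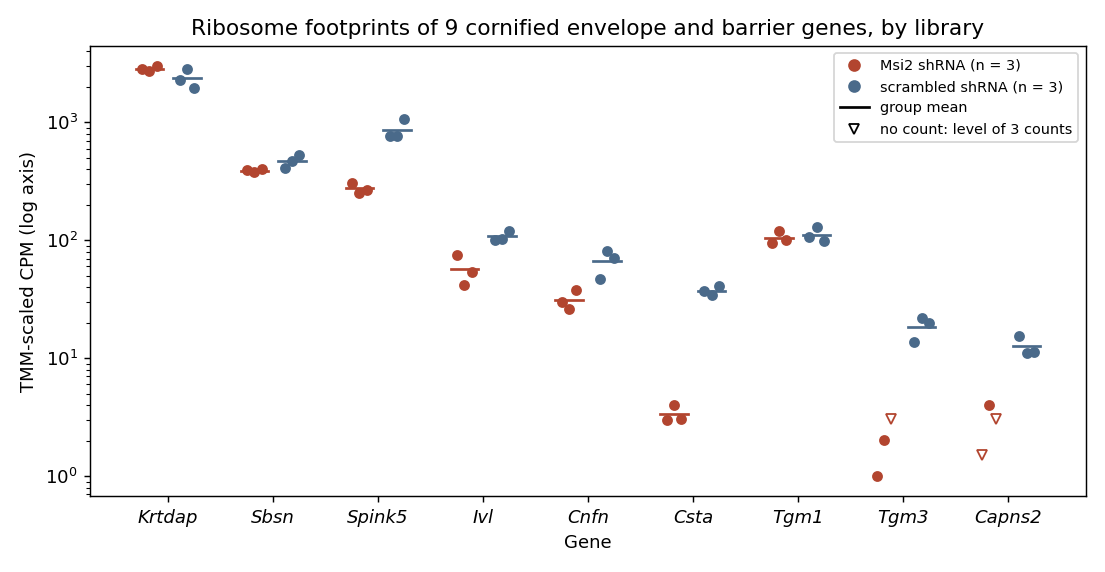
Footprint level (TMM-scaled CPM, log axis) of the 9 testable genes in each library, Msi2 shRNA left of scrambled (n = 3 each), with lines at group means where no library is at 0. Open triangles mark libraries with no count, drawn at the level of 3 counts. Krtdap is the gene whose knockdown mean lies above its scrambled mean.

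For the enzymes, Tgm1 footprints were at 95.2, 120.3 and 100.3 CPM in knockdown and 107, 130 and 98.8 CPM in scrambled libraries, overlapping groups with a log2 change of -0.15 ± 0.16 (adjusted p = 0.585). Tgm3 had 3 footprint counts in all knockdown libraries and 110 in scrambled ones, a ratio of 21.3 (95% counting interval 7.09 to 105), and the test called it lower (-4.28 ± 0.56, adjusted p = 3.54e-07). Capns2 had 2 knockdown and 76 scrambled counts, a ratio of 22.1 (5.90 to 185), and was called lower (-4.27 ± 0.70, adjusted p = 1.89e-05). Its change was -3.14 without knockdown replicate 1 and -7.52 without knockdown replicate 2, which held both knockdown counts. In both genes the knockdown counts were at or under the floor of 3 counts, so the fitted changes depend on the prior and are not bounds. Calml3 had 0 counts in knockdown and 1 in scrambled footprints.

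For the inhibitors, Spink5 footprints were at 309, 253 and 266 CPM in knockdown and 771, 763 and 1061 CPM in scrambled libraries. The log2 change, -1.63 ± 0.14 (adjusted p = 4.37e-11), stood beside -1.61 in RNA. Csta footprints were at 3.02, 4.01 and 3.07 CPM in knockdown and 36.9, 34.6 and 40.9 CPM in scrambled libraries, from 11 and 216 counts. Its log2 change in footprints was -3.49 ± 0.34 (adjusted p = 6.76e-10), beside -2.24 in RNA.

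For the envelope proteins, Ivl footprints were at 75.5, 42.1 and 54.2 CPM in knockdown and 101, 102 and 119.9 CPM in scrambled libraries (log2 change -0.78 ± 0.18, adjusted p = 0.00145). Cnfn footprints were at 30.2, 26.1 and 37.9 CPM in knockdown and 47.0, 81.3 and 70.5 CPM in scrambled libraries (-1.05 ± 0.22, adjusted p = 0.000577). Both genes had every knockdown library under every scrambled one. Sbsn footprints were at 391, 381 and 399 CPM in knockdown and 412, 471 and 529 CPM in scrambled libraries, not overlapping, with a log2 change of -0.26 ± 0.13 that did not pass the test (adjusted p = 0.186). Krtdap footprints were at 2836, 2730 and 2982 CPM in knockdown and 2276, 2837 and 1972 CPM in scrambled libraries, with an estimate of 0.27 ± 0.13 (adjusted p = 0.180). Scrambled replicate 2 overlapped the knockdown group, and without it Krtdap was called higher (0.42, adjusted p = 0.0343), as it was when each library's trend with gene span was removed (0.35, adjusted p = 0.0437).

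**Figure D3:**
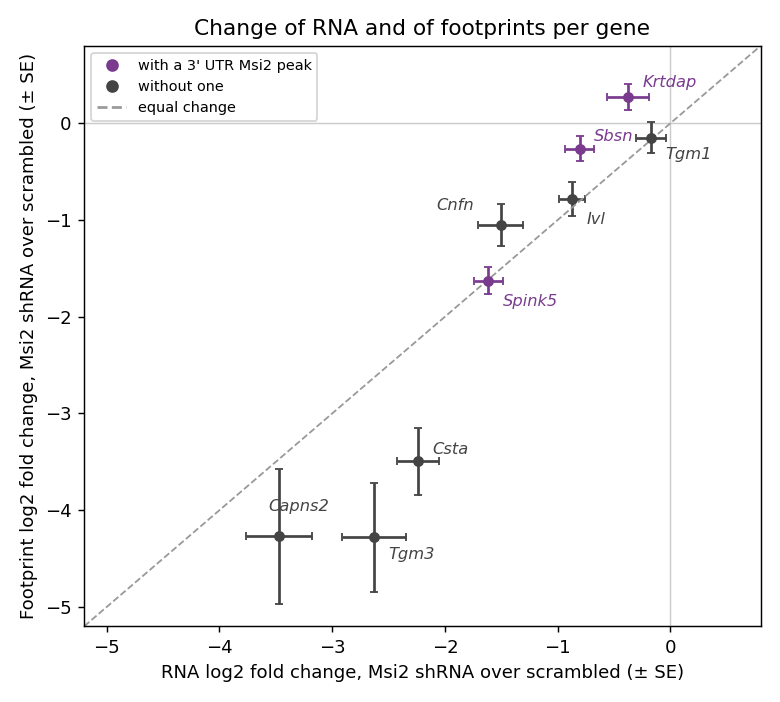
Log2 fold change of RNA (x) and of footprints (y), Msi2 shRNA over scrambled, for the 9 testable genes with bars of 1 SE. Purple genes have an Msi2 peak in the 3' UTR, and the dashed line marks equal change. Spink5, Ivl and Tgm1 lie near the line, Krtdap, Sbsn and Cnfn above it, and Csta, Tgm3 and Capns2 below it.

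Translational efficiency, the footprint level over the RNA level, was tested in 1 model of the 12 libraries with an assay by knockdown term. None of the 9 was called by edgeR, nor any of the 7 to which DESeq2 gave an adjusted p (not Tgm3 or Capns2), beside 0.0739% of 10821 genes called lower and 0.129% called higher. At an unadjusted p under 0.05, 2 of 9 were higher and 1 was lower, beside 1300 of 10821 genes in both directions together. Sbsn (0.56 ± 0.18, adjusted p = 0.182) and Krtdap (0.66 ± 0.25, adjusted p = 0.267) had positive log2 changes, and Csta had a negative one (-1.25 ± 0.47, adjusted p = 0.267). Spink5 was at 0.01 ± 0.20 (adjusted p = 0.999) and Tgm1 at 0.04 ± 0.21 (adjusted p = 0.971).

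Within each condition, the log2 ratio of footprints to RNA placed Krtdap at 1.85 in knockdown and 1.21 in scrambled cells, above 94.6% and 85.0% of 8918 genes. Spink5 was at 1.35 in knockdown and 1.39 in scrambled cells, above 88.3% of genes in both. Csta was at -1.62 in knockdown and -0.42 in scrambled cells, above 3.53% and 23.6% of genes. The median over all genes was 0.24 in knockdown and 0.19 in scrambled cells.

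A search for genes with a similar RNA profile left out every gene of the wider lists below, so those barrier genes were not ranked. Outside all lists, 5 genes had the profile over the 6 RNA libraries nearest to the mean profile of the 9 tested members. They were Klrg2, Vsig8, Fam162a, Hexa and Ly6a. Likeness was the root mean square distance of centred log2 CPM among 8314 genes, and these distances were 0.0865, 0.104, 0.106, 0.112 and 0.113. Their log2 changes, largely fixed by this choice in the same libraries, lay between -1.53 (Vsig8) and -1.33 (Hexa). Of the members themselves, Cnfn (0.200) and Spink5 (0.233) lay nearest to their common mean, and Capns2 (0.862) lay farthest from it.

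In each wider list of barrier genes, more genes were called lower than higher in RNA. Over all genes tested, 21.7% were called lower and 22% higher in RNA, and 7.38% and 8.76% in footprints. The counts of each list below stand beside these shares, and a difference from them was not tested. The counts include genes that passed the low-count filter only through scrambled libraries, to which only a fall was open. Of 50 other envelope proteins, 19 were tested in RNA, of which 7 fell and 1 rose (median -0.38). The small proline-rich envelope proteins Sprr2h (-0.93 ± 0.11, adjusted p = 1.23e-05), Sprr1a (-0.92 ± 0.17) and Sprr2d (-0.55 ± 0.11) fell, and periplakin, Ppl, rose (0.45 ± 0.13, adjusted p = 0.0108). In footprints 10 were tested, with a median of 0.18 and 3 of the 10 below 0. Of these Sprr1b (-0.46 ± 0.14) and Sprr1a (-0.80 ± 0.24) fell and Ppl rose (0.45 ± 0.15). Of 15 cross-linking and calcium relatives, 9 were tested in RNA, of which 5 fell, among them the calpain Capn1 (-0.48 ± 0.10), and 1 rose, the calpain Capn2 (0.32 ± 0.11), with a median of -0.48. The 5 include Tgm5 and Calm4, to which only a fall was open. In footprints 1 of 7 fell, Tgm2 (-0.64 ± 0.20), and the median was 0.10.

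Of 30 genes of desquamation, the controlled shedding of dead cells, 18 were tested in RNA, of which 11 fell and 1 rose (median -0.63). Corneodesmosin, Cdsn, the glue of the junctions between corneocytes, had a log2 change of -1.20 ± 0.15 in RNA and -1.07 ± 0.19 in footprints. The desmosomal cadherin Dsg1b had a log2 change of -2.14 ± 0.31 in RNA and -1.68 ± 0.31 in footprints. The cysteine protease Blmh, which breaks down filaggrin products, changed by -0.68 ± 0.11 in RNA, and the skin aspartic protease Asprv1 by -1.37 ± 0.19 in footprints. The membrane protease matriptase, St14, rose by 0.45 ± 0.11 in RNA and 0.80 ± 0.15 in footprints. In footprints 5 of 14 fell and 1 rose (median -0.18), beside 7.38% lower and 8.76% higher over all genes tested.

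Of 28 genes of barrier lipids, 24 were tested in RNA, of which 12 fell and 3 rose (median -0.32). The cholesterol sulfotransferase Sult2b1 (-0.97 ± 0.12), the fatty acid hydroxylase Fa2h (-1.82 ± 0.31) and the acylceramide enzyme Cyp4f39 (-2.17 ± 0.40) fell in RNA, and also in footprints (-0.81 ± 0.17, -1.58 ± 0.48 and -2.43 ± 0.53). Cyp4f39 in both assays, and Fa2h in footprints, passed the low-count filter only through scrambled libraries, so only a fall was open to them there. Ugcg, the glucosylceramide synthase (1.07 ± 0.15), the epidermal lipoxygenase Aloxe3 (1.03 ± 0.18) and the fatty acid elongase Elovl6 (0.91 ± 0.32) rose in RNA. In footprints 6 of 21 fell (median -0.31), Fa2h and Cyp4f39 among them, beside 7.38% of all genes tested.

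Of 23 markers of spinous and granular cells, 19 were tested in RNA, of which 13 fell and 4 rose (median -0.76). In footprints 11 of 17 fell (median -0.67), Gjb2 among them, beside 7.38% of all genes tested. Among those with the smallest p, the fatty acid-binding protein Fabp5 averaged 614 ± 38.9 CPM in knockdown and 2522 ± 365 CPM in scrambled RNA (log2 change -2.04 ± 0.14, adjusted p = 3.65e-08). Ly6d (-1.85 ± 0.13) and the keratin Krt78 (-2.14 ± 0.20) also fell in RNA, and Fabp5 (-1.59 ± 0.13), Ly6d (-1.55 ± 0.14) and the connexin Gjb2 (-4.28 ± 0.67) in footprints. Gjb2 had 2 knockdown and 75 scrambled footprint counts and passed the low-count filter only through scrambled libraries. Only a fall was open to it, and with knockdown counts under the floor of 3 its fitted change is not a bound. Krt80 (0.64 ± 0.12), Cldn1 (0.49 ± 0.12) and Cldn4 (0.46 ± 0.12) rose in RNA.

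Of 14 basal markers, 8 rose and 4 fell in RNA (median 0.55), and 9 rose and 2 fell in footprints (median 0.52). Over all genes tested, 22% were called higher and 21.7% lower in RNA, and 8.76% and 7.38% in footprints. The laminin chains Lama3 (1.40 ± 0.14) and Lamb3 (0.95 ± 0.12) and the integrin Itga3 (0.86 ± 0.12) rose in RNA, while Krt5 (-0.62 ± 0.15), the cadherin Cdh3 (-0.40 ± 0.11) and another keratin, Krt15 (-3.41 ± 0.76), fell, as did Krt14 (-0.39 ± 0.14). Summed RNA of 12 fibroblast markers was 67.0 to 73.9 CPM in knockdown and 56.1 to 64.8 CPM in scrambled libraries, with Fbln1 the highest gene and 7 genes at 0 in every RNA library, Col1a2 and Col3a1 among them. Immune markers summed to 8.30 to 13.4 CPM in knockdown and 16.02 to 18.6 CPM in scrambled libraries, mostly Cd68, with 4 of 7 at 0, Cd207 among them. Endothelial markers, mostly Kdr, summed to 3.36 to 5.09 CPM in knockdown and 1.33 to 2.48 CPM in scrambled libraries, with 1 of 6 at 0. Melanocyte markers, mostly Pmel, summed to 2.08 to 3.77 CPM in knockdown and 1.71 to 2.31 CPM in scrambled libraries, with 4 of 8 at 0, Tyr and Dct among them. The part of these cells in the results was not tested.

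**Figure D4:**
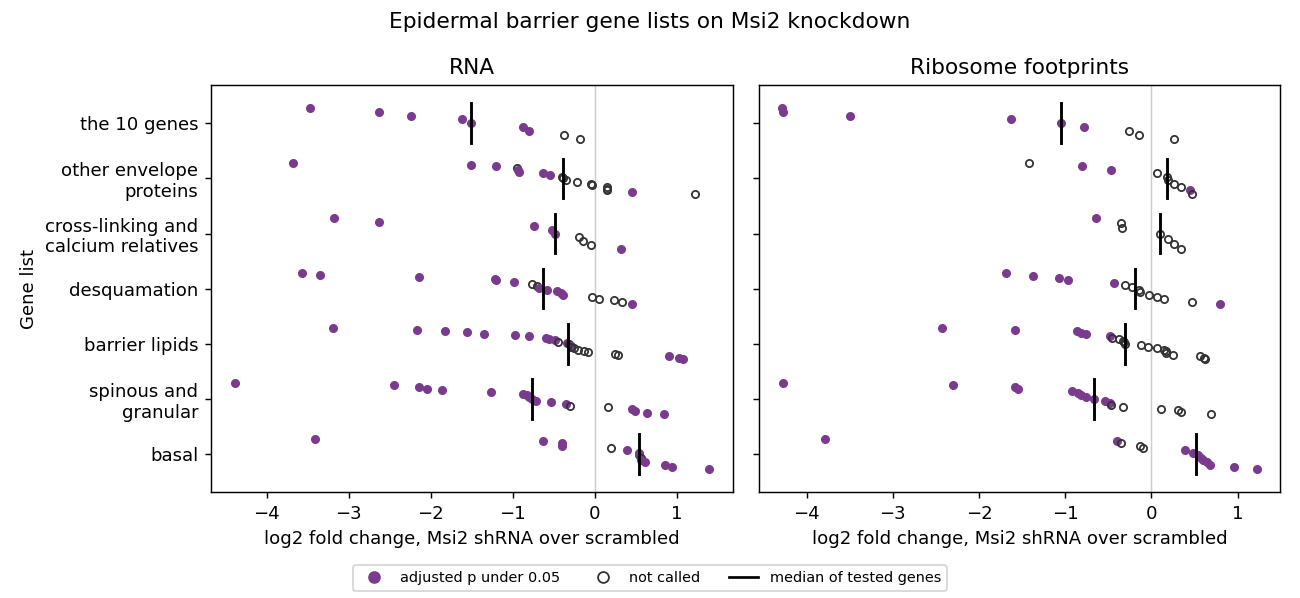
Log2 fold change, Msi2 shRNA over scrambled, of each tested gene in 7 gene lists, in RNA (left) and ribosome footprints (right). Filled points passed an adjusted p of 0.05, open points did not, and bars mark list medians. In RNA the medians are -1.50 for the 10 genes, -0.38 for other envelope proteins and 0.55 for basal markers.

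Msi2 peaks were listed in 3 of the 10 genes. The authors' list held 3' UTR peaks, regions where reads of the CLIP libraries pile up, for Krtdap, Sbsn and Spink5, 7 peaks in all, and none for the other 7 genes. Over the whole list 2671 peaks lay in 1199 genes, and 10.3% of genes tested in RNA had one. Spink5 had the lowest RNA level of the 3, 330 CPM in scrambled libraries, and of the 416 genes at or above that level 32.7% had a peak. The other 7 genes all lay under that level, so this share does not cover them. There is no control CLIP library among the samples, so peaks were described and not tested, and their sequences are not shown because the sequence tables used here cover promoters and not 3' UTRs.

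Krtdap had 2 adjacent peaks at the end of its gene (peak positions are in mm10, the UCSC name of GRCm38). The peak at chr7:30790917-30791028 had a height, the authors' total over the 5 libraries, of 94 reads. It overlapped 4, 51, 42, 53 and 38 reads in CLIP replicates 1 to 5. RNase was at 1x, then at dilutions of 1 in 20 (low MW), 20 (high MW), 50 and 75. The peak at chr7:30791030-30791101 had a height of 88 and overlapped 2, 33, 33, 49 and 28 reads. Their heights exceeded 97.4% and 96.9% of all 3' UTR peaks, and replicate 1, with 1954 reads in 3' UTR peaks against 17760 to 26026 in the others, had the fewest reads in both. Sbsn had 1 peak, at chr7:30756056-30756135, with a height of 25 and 0, 2, 3, 12 and 8 reads. Of its reads 48.0% came from replicate 4, which gave 27.4% of the reads in all 3' UTR peaks. Dmkn, between them, also had a peak (chr7:30780829-30781064, height 38).

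Spink5 (chr18:43959545-44022487) had 4 peaks in its 3' UTR, with summits 1589, 1329, 866 and 450 bases before the gene's end. Their heights were 46, 22, 91 and 28 reads, and 195 genes in all had 4 peaks or more. The third peak held 3, 17, 30, 25 and 16 reads in replicates 1 to 5. Replicate 3, labelled high MW, had the most reads in each of the 4. Of the 3 bound genes, Spink5 fell in both RNA and footprints, Sbsn passed the test in RNA and not in footprints, and Krtdap passed in neither. Of the 6 tested genes without a peak, Capns2, Tgm3, Csta, Cnfn and Ivl fell in both and Tgm1 passed in neither.

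**Figure D5:**
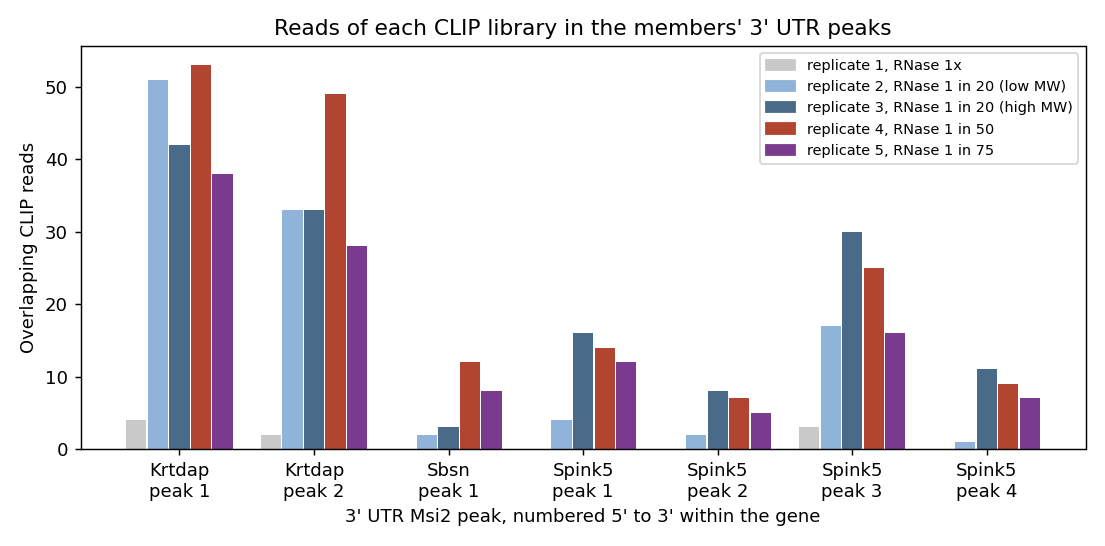
Reads of each of the 5 CLIP libraries overlapping the 7 peaks in 3' UTRs of Krtdap, Sbsn and Spink5, numbered along each gene. Replicate 1 has at most 4 reads in any of them, and the 2 Krtdap peaks hold the most reads in each of the other libraries, up to 53.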

How the data were processed

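RNA and ribosome footprints were deposited by the authors as counts of alignments over each gene's coding sequence, and the peak lists as a signal, the peak height over the 5 CLIP libraries, with counts of overlapping reads per library, per the file headers and the authors' deposited description. TopHat, HTSeq, DESeq, cutadapt and Novoalign are named per the submitters' processing notes, with build mm10; the peak caller and the strand setting are not given in the sources used here. Lines naming no gene were left out of library sizes: reads without a feature were 32.3 to 35.2% of each RNA library. Differences were tested by edgeR 4.0.16 under R 4.3.3. Low genes were removed by filterByExpr (minimum count 10, minimum total 15), libraries were scaled by TMM, and the robust quasi-likelihood test was adjusted by Benjamini-Hochberg over all genes that passed, with a threshold of 0.05. Each assay had its own fit with group as the term. The standard error is the size of the log2 change over the root of F. The ratio of footprints to RNA within a condition used a prior of 0.1 CPM, and centred profiles one of 0.5 CPM and a minimum average log2 CPM of 3. Count intervals are exact at 95%, and intervals and the floor of 3 counts cover counting error only. The fits were tested on simulated data.

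Members, lists and tests were chosen with earlier results of these data known. In each wider list, named genes are the 3 called ones with the smallest p in each direction, in RNA and in footprints. Also named are the members, Msi2, family relatives, keratins and other layer markers, and the highest gene of each list of other cells. So are the 5 genes outside all lists that are most like the members. Not every gene the rule names is reported. Alternatives were DESeq2 1.42.0, upper-quartile factors, no filter, a replicate block, 1 fit over the 12 libraries, other peak rules, and each library left out. Removal of the trend with gene span and a lookup of Csta as Csta1 were added after the data were seen.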

Additional observations from a re-analysis of the deposited data

Results flagged for a closer look

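Outside the list of 3' UTR peaks, the authors' list of all regions held a region within Krtdap (chr7:30789506-30789547) with a height of 10 reads and one within Spink5 with a height of 12 reads, signal that none of the comparisons used. They overlapped 1, 2, 1, 0 and 6 reads of Krtdap and 0, 3, 2, 1 and 6 reads of Spink5 in CLIP replicates 1 to 5. The lowest height in the 3' UTR list was also 10.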

How the results depend on the processing

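Calls of the 9 members in RNA kept their side of the threshold in 107 of 108 alternatives and in footprints in 106 of 108. The exceptions were Krtdap in RNA without scrambled replicate 3 and Krtdap in footprints without scrambled replicate 2 and, added after the data were seen, with the trend with gene span removed. Members called higher in footprints were thus 1 with that trend removed and 0 to 1 with a library left out. Deviations of same-numbered knockdown and scrambled libraries correlated at 0.0814, -0.320 and -0.272 in RNA and 0.0484, 0.0291 and -0.00339 in footprints. In RNA, knockdown replicate 2 correlated with scrambled replicate 3 at 0.362, and knockdown replicate 3 with scrambled replicate 2 at 0.287. With 3 libraries in a group, these values cannot show whether libraries were paired. With the replicate block, 7 members were lower in RNA and 6 in footprints, and no call of a member changed.

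Over all genes, footprint calls were 373 lower and 481 higher with DESeq2, and 350 to 749 lower and 463 to 885 higher with a library left out. Calls of translational efficiency were 38 lower and 60 higher with DESeq2, 13 and 5 with upper-quartile factors, 78 and 46 without a filter, and 2 and 1 with the replicate block. With a library left out they were 0 to 149 lower and 0 to 94 higher. In translational efficiency, Spink5 turned to -0.0469 with DESeq2, -0.0570 with upper-quartile factors and -0.0547 without a filter, and Tgm1 to -0.0258 with upper-quartile factors and -0.0260 without a filter. With a library left out, Spink5 ranged from -0.18 to 0.15, Tgm1 from -0.18 to 0.19, Ivl from -0.23 to 0.24 and Capns2 from -6.37 to 0.25, and no member was called. The cause was not tested. Of the 7 peaks in members, 3, in 2 genes, had a read in all 5 CLIP libraries, and in the list of all regions 9 regions overlapped members. The shallowest footprint library limits low genes: 3 counts there are 6.02 CPM.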

Other observations

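Some barrier genes outside the set, like Sbsn within it (48.0%), had 3' UTR peaks in which CLIP replicate 4 gave the most reads. The peak in Krt1, a gene with 1 knockdown and 10 scrambled RNA counts in all, overlapped 0, 3, 7, 34 and 10 reads in CLIP replicates 1 to 5, so that 63.0% came from replicate 4. In the stefin gene BC100530 the reads were 0, 2, 3, 24 and 5, 70.6% of them from replicate 4, and in Stfa3 they were 1, 6, 8, 22 and 12, 44.9% from that replicate. In RNA these genes averaged 2.92 CPM (BC100530) and 3.49 CPM (Stfa3) in knockdown and 58.3 CPM (BC100530) and 29.5 CPM (Stfa3) in scrambled libraries. The peak in Lor, a gene with 38 knockdown and 49 scrambled RNA counts, held 0, 3, 1, 6 and 4 reads, 42.9% from replicate 4. Replicate 4 gave 27.4% of the reads in all 3' UTR peaks. In the Krt14 peak, by comparison, it gave 29.1% of 460 reads. These genes were chosen after their values were seen.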
